A study of Mus musculus with 8 samples.

Results

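The 77 genes described here encode the proteins of the cytoplasmic ribosome, 46 in the large (60S) subunit and 31 in the small (40S) subunit. They were chosen by symbol alone, as Rpl or Rps followed by a number (with a closing a or x allowed), the stalk genes Rplp0, Rplp1 and Rplp2, and Rpsa. At least 2 libraries had to lie above the floor of the row, and all 77 matching rows did so, with every one of the 8 libraries above the floor. They are 77 of 18051 rows tested and of 31574 rows in the deposited table. The cells were c-kit+ acute myeloid leukaemia cells from the femur and tibia marrow of C57BL/6 mice, with sample titles that begin with Moz, and RNA was sequenced in 8 libraries, 2 in each of 4 groups.

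The genotype labels of the groups are Ezh1+/+ Ezh2+/+ after corn oil, Ezh1+/+ Ezh2-/- after tamoxifen, Ezh1-/- Ezh2+/+ after corn oil and Ezh1-/- Ezh2-/- after tamoxifen. The design text gives Ezh2 in the oil groups as flox/flox and in the tamoxifen groups as Δ/Δ. The groups are called Ezh1-present or Ezh1-null, oil or tamoxifen, below. Tamoxifen was injected into the peritoneum at 10 mg/kg/day for 5 doses, and cells were taken 7 days after treatment. Ezh1 and Ezh2 are the alternative histone methyltransferases of Polycomb repressive complex 2. Tamoxifen and the loss of Ezh2 cannot be told apart in any library, the driver of the recombinase is not given in the sources used here, and nothing says that replicates are separate mice or leukaemias. Every p therefore measures the spread between these libraries, which may be technical.

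A ribosome needs 1 copy of nearly every one of these proteins, so their genes are transcribed strongly and at a matched rate in growing cells. Most of their mRNAs begin with a C followed by an unbroken stretch of pyrimidines, the terminal oligopyrimidine (TOP) tract, through which mTOR and the RNA-binding protein Larp1 set how much of the mRNA is translated. Loss of a single copy of RPS19, RPS14, RPL5 or RPL11 leads to failure of red cell production in human marrow, and free Rpl5 and Rpl11 bind Mdm2 and thereby stabilise p53. The values below are log2 of a normalized value taken relative to the median of that gene in the 8 libraries, so they show how a gene differs between libraries and not which ribosomal protein gene has more RNA. In bulk RNA, fewer cells of a type and less RNA per cell cannot be told apart.

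Ribosomal protein genes varied less between libraries and groups than most rows of the table, and none passed the test in any comparison. The range of a gene over the 8 libraries had a median of 0.257 over the 77 genes, from 0.117 in Rpl24 to 0.522 in Rplp2. The same range had a median of 0.858 over the 15517 rows with every library above the floor. A range under 0.5 was found in 76 of the 77 genes (98.7%) and in 26.9% of those 15517 rows. The range of the 4 group means had a median of 0.119 for the 77 genes and 0.625 for the 15517 rows, and the pooled SD between the libraries of a group had medians of 0.0918 and 0.154. Both the spread between replicates and the spread between groups were therefore smaller than for the typical row, the spread between groups by the larger factor. These ranges are on the log2 scale, and they are descriptions of the libraries with no test. The rows were not matched for expression level, which the centred values do not give. A small spread was also not particular to the 77 genes. The standard error of the fitted change was 0.09 for Naca and 0.10 for Eef1a1, translation genes outside the set, and 0.16 for Npm1. Its median was 0.11 over the 77 genes and 0.18 over all rows.

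The 77 genes shifted together from library to library, and libraries of 1 group did not shift alike. Their median was -0.05 and 0.02 in the Ezh1-present oil libraries (replicates 1 and 2), 0.06 and -0.11 in the Ezh1-present tamoxifen libraries, -0.02 and 0.05 in the Ezh1-null oil libraries, and -0.02 and 0.03 in the Ezh1-null tamoxifen libraries. In Ezh1-present tamoxifen replicate 1, 68 of the 77 genes lay above their own median, and in replicate 2 of that group only 5 did. The other libraries had 24 and 51, 27 and 59, and 21 and 53 genes above it, in the same order of groups. Ezh1-present tamoxifen replicate 2 thus stood apart from all others, and 59 of the 77 genes had their largest gap between replicates in that group. The median over all 18051 rows lay between 0 and 0.01 in each library.

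**Figure D1:**
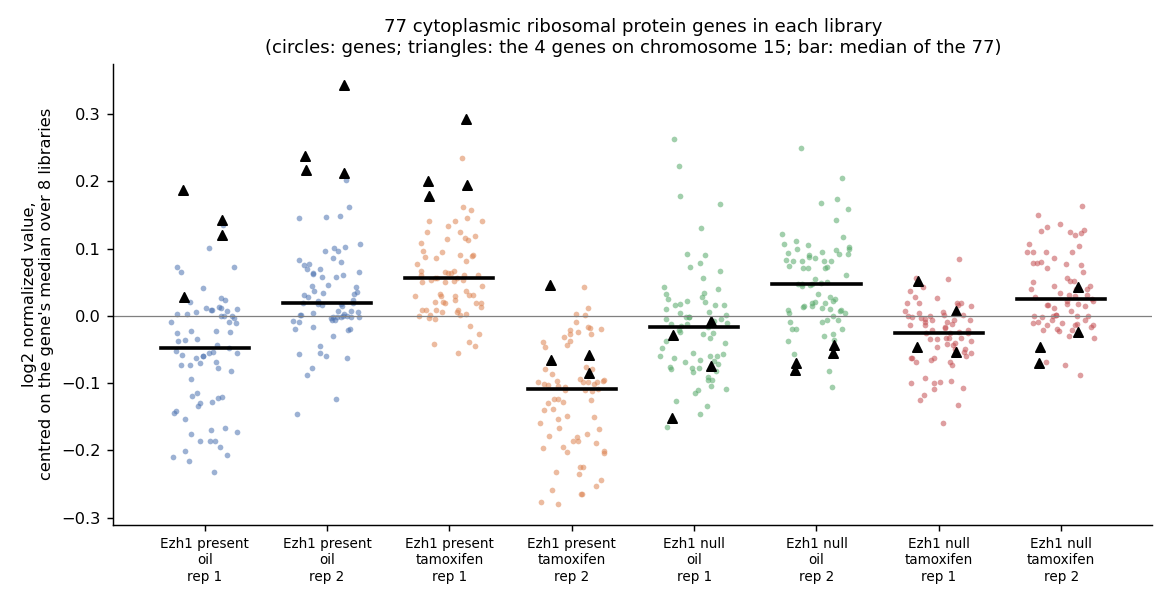
The log2 normalized value of each of the 77 genes, relative to the median of that gene in the 8 libraries (y axis), is plotted for each library (x axis). Circles are genes, black triangles are the 4 genes on chromosome 15 and bars are the median of the 77, which lies lowest (-0.11) in Ezh1-present tamoxifen replicate 2.

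Both subunits took part in this shift. In Ezh1-present tamoxifen replicate 2, 4 of 46 genes of the large subunit and 1 of 31 of the small subunit lay above their median, with list medians of -0.11 and -0.13. Fau encodes a ubiquitin-like domain fused to a ribosomal protein, and its symbol keeps it outside the rule. It lay at -0.23 in that library and at 0.08 in the other Ezh1-present tamoxifen library. The 8 tested ribosomal protein genes outside the rule did not share 1 direction there: their median was -0.0026, with 4 of 8 above 0, among them Rpl22l1 at 0.26 and Rps27l at 0.30.

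Other measures moved with that library too, and their part in the shift was not tested. The erythroid markers (8 of 13 listed genes tested) had a median of 1.94 there, with all 8 above 0, against -2.01 to 1.68 in the other 7 libraries. The 1.68 was that of Ezh1-null oil replicate 2, also with all 8 above 0. In that oil library the 77 genes lay high, with a median of 0.05 and 59 of 77 above 0. The T and NK cell markers (10 of 10) had a median of 2.32 there, again with all above 0, against -2.37 to 1.13 elsewhere. Mature neutrophil markers (9) ran from -3.53 to 1.76 and stood at -0.32 in that library, B cell markers (7) ran from -2.02 to 3.42 and stood at -0.98, and the progenitor and leukaemia markers (10) ran from -0.69 to 0.41 and stood at -0.30. The defining progenitor gene Kit lay above the floor in each of the 8 libraries. It lay between -0.71 and -0.25 in the Ezh1-present libraries and between 0.25 and 0.64 in the Ezh1-null libraries. By genotype it was called higher in Ezh1-null cells in limma, in oil (1.26 ± 0.17, adjusted p = 0.00848) and after tamoxifen (0.79 ± 0.17, 0.0453). The list did not move in 1 direction: of its 10 genes, 5 were called higher and 2 lower in each of these comparisons. Meis1 was lower in both, by limma -1.36 ± 0.11 in oil (adjusted p = 0.00294) and -1.47 ± 0.11 after tamoxifen (0.00656). Across the 77 genes, the Spearman correlation of the value with the GC content of the transcript was -0.35 in Ezh1-present tamoxifen replicate 2. It was -0.41 in Ezh1-present oil replicate 1 and -0.15 to 0.18 in the other 6. Over 12909 other genes it was -0.19, 0.02 and -0.07 to 0.08 in the same order. These correlations describe genes of 1 library and not replicates.

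Reads of ribosomal protein mRNAs can also be assigned to their many processed pseudogenes. The table held 197 rows named as pseudogenes of these proteins, and 53 of the 77 genes had at least 1 such row. In 180 of the 197 rows every library lay at the floor, and 15 could be tested. Among these 15 rows, 14 lay above 0 in Ezh1-present tamoxifen replicate 2, with a median of 0.35, while the 77 genes lay low. In replicate 1 of that group, where the 77 genes lay high, 14 of the 15 rows lay above 0 as well, with a median of 0.18. Of the 77 values, those of the 53 genes with a pseudogene row are uncertain to the extent that the authors' counting split such reads. Pseudogenes were recognised by symbol only, so the other genes are not shown to be free of this.

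The starts of these genes were searched for runs of pyrimidines, a feature that the symbol rule did not use. RefSeq windows on the mouse build GRCm38.p6 (mm10), from 250 bases before the transcription start to 50 after it, were matched by gene identifier for 57 of the 77 genes. Among the genes without a window were Rpl3, Rpl7, Rpl8, Rpl17, Rpl21, Rpl23a, Rpl29, Rpl30, Rpl32, Rpl36, Rplp1, Rps14, Rps20, Rps27a and Rps29. In 43 of the 57 the nearest RefSeq start was the deposited start. Rps15a, Rpl13a, Rps6, Rpl37 and Rpl10 are among these, and Rplp2 and Rpl34 are not. The lines below run from 40 bases before the start to 20 bases from it, on the strand of the gene, with the longest run of C and T in capitals. They show the gene with the largest range over libraries (Rplp2), those with the largest falls after tamoxifen in Ezh1-present cells (Rps15a, Rpl13a), 1 of the 3 steadiest (Rpl34), the S6 kinase substrate (Rps6), and a chromosome 15 gene (Rpl37) and an X-linked gene (Rpl10) with short runs.
Rplp2: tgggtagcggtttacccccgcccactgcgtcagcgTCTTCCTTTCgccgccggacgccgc
Rps15a: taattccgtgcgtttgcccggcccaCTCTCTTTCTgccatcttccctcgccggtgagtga
Rpl13a: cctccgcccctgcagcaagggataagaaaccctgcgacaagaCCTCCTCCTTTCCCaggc
Rpl34: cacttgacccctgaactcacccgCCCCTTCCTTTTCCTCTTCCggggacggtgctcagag
Rps6: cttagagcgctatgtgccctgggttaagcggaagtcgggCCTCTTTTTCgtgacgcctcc
Rpl37: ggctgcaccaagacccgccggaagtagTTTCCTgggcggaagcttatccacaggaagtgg
Rpl10: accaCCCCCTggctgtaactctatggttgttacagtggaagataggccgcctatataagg

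These windows lie at chr7:141447611-141447670 (plus strand) for Rplp2, chr7:118116128-118116187 (minus) for Rps15a, chr7:45128726-45128785 (minus) for Rpl13a and chr3:130730318-130730377 (minus) for Rpl34. Those of Rps6, Rpl37 and Rpl10 lie at chr4:86857348-86857407 (minus), chr15:5116573-5116632 (plus) and chrX:74270776-74270835 (plus). For the shares that follow, a gene was counted if any of its RefSeq windows held a match. A gene with several windows thus had more chances, and the 57 genes were not matched to all genes for this. The search for runs took at least 8 pyrimidines on the strand of the gene, within 20 bases of a RefSeq start on either side. Such a run was found in 28 of the 57 genes (49.1%) and in 18.4% of the 27025 genes with a window. The 6 letters CTTTCC on the strand of the gene, which such a run can contain, were found in 23 of 57 (40.4%) against 16% of all genes. CCGGAAG, a core that ETS factors such as GABP bind, was found on either strand in 24 (42.1%) against 9.93%. CCATCTT, part of the site of YY1, was found on either strand in 9 (15.8%) against 7.28%, and TATAAA in 6 (10.5%) against 15.7%. These are matches of letters in the 300 bases of a window, not measured binding. The run of pyrimidines was counted anywhere within 20 bases of a RefSeq start, so it does not by itself show a TOP tract.

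The first comparison asks what changed after tamoxifen, and so with loss of Ezh2, in Ezh1-present cells. No ribosomal protein gene passed an adjusted p of 0.05 in limma, where 0.903% of the 18051 rows did. None had an unadjusted p under 0.05 either, against 20.6% of all rows. The groups did not overlap for 8 of the 77 genes (10.4%; 3 higher and 5 lower after tamoxifen), against 53.8% of all rows. The median change of the 77 genes was -0.02 on the log2 scale, beside 0.01 over all rows, with 32 genes above 0 and 45 below. The median absolute change was 0.0447 for the 77 genes and 0.261 for all rows. In the same comparison the erythroid markers had a median change of 2.28 and the T and NK cell markers one of 4.2, and their part in the values of the ribosomal protein genes was not tested.

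The 3 largest differences in this comparison were all below 0. Rps15a, a protein of the small subunit, lay at 0.07 and 0.04 in the oil libraries and at -0.03 and -0.24 in the tamoxifen libraries. Its groups did not overlap, but most of the difference came from the second tamoxifen library. The limma change was -0.19 ± 0.10 (SE, 2 libraries per group), with an adjusted p of 0.362, the smallest of the 77 genes here.

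Rpl13a, a large-subunit protein also known for a role outside the ribosome in silencing inflammatory mRNAs, lay at 0.14 and 0.20 after oil and at 0.11 and -0.03 after tamoxifen. Its change was -0.13 ± 0.09, with an adjusted p of 0.489. Rpl3, which helps form the peptidyl transferase centre, lay at 0.14 and 0.21 after oil and at 0.19 and -0.08 after tamoxifen, where the groups overlapped. Its change was -0.12 ± 0.12, with an adjusted p of 0.610.

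The size of a shared change of the 77 genes depended on 1 library. Without Ezh1-present tamoxifen replicate 2 the median change was 0.0782, and without replicate 1 of that group it was -0.1023. The median thus took the sign of the library that was kept. No gene of the 77 was called in either fit. With all libraries fitted, the 95% interval of every one of the 77 genes lay within a 1.5-fold change in either direction. At the extremes the intervals ran from -0.49 to 0.44 on the log2 scale. They rest on the spread between these libraries, which may be technical, and were fitted gene by gene without the shift shared within a library.

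**Figure D2:**
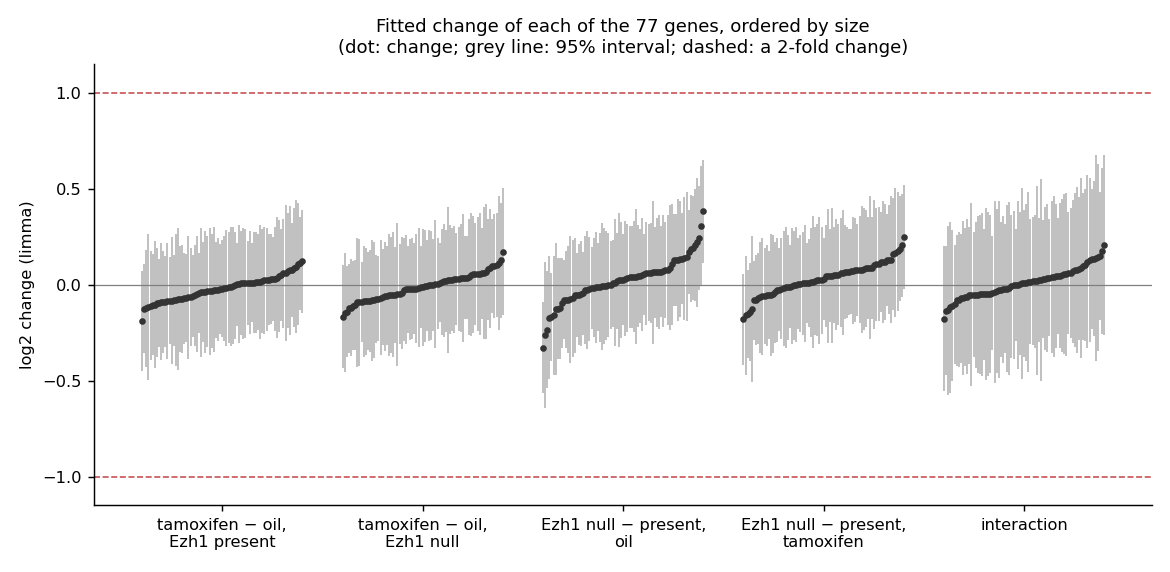
The fitted log2 change of each of the 77 genes (dots, y axis) with its 95% interval (grey lines) is plotted for the 5 comparisons (x axis), the genes ordered by size within each. Every interval lies inside the dashed lines, which mark a 2-fold change, and the changes are widest, from -0.33 to 0.38, for Ezh1-null against Ezh1-present oil libraries.

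In Ezh1-null cells, tamoxifen again left no ribosomal protein gene past the threshold, while 3.4% of all rows passed it. None of the 77 genes had an unadjusted p under 0.05, against 17.9% of all rows. Groups that did not overlap were found for 22 of the 77 genes (28.6%; 5 higher and 17 lower after tamoxifen), against 49.2% of all rows. The median change was -0.01 for the 77 genes and 0 for all rows. Genes of the small subunit had a median change of -0.05 and those of the large subunit 0.02, a difference given as a description. All 77 intervals lay within a 1.5-fold change.

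Rpl10a, a large-subunit protein, lay at -0.08 and -0.06 after oil and at 0.06 and 0.15 after tamoxifen, and its groups did not overlap. Its limma change of 0.17 ± 0.13 had an adjusted p of 0.565, so it did not pass. Rps29, a small zinc-binding protein of the small subunit, lay at 0.22 and 0.25 after oil and at 0.04 and 0.09 after tamoxifen. Its change of -0.17 ± 0.11 had an adjusted p of 0.496, the smallest of the 77 genes. Rplp2, a protein of the acidic stalk that recruits elongation factors, lay at 0.26 and 0.11 after oil and at 0.00 and 0.08 after tamoxifen. Its change was -0.15 ± 0.12, with an adjusted p of 0.604.

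The widest differences among the ribosomal protein genes lay between the Ezh1 genotypes in oil libraries, where the labels give Ezh2 as intact. Here 24.9% of all rows passed the test and none of the 77 genes did. An unadjusted p under 0.05 was found for 2 of the 77 genes (2.6%), Rps29 and Rpl30, against 39.8% of all rows. Groups did not overlap for 27 of the 77 (35.1%; 16 higher and 11 lower in Ezh1-null cells), against 65.8% of all rows. The median change was 0.03 for the 77 genes and -0.04 for all rows, with 44 genes above 0 and 33 below. The median change of the mature neutrophil markers was 4.44 and that of the B cell markers 5.07 in the same comparison. Of the 10 progenitor and leukaemia markers, 5 were called higher and 2 lower (70%, against 24.9% of all rows), with a median change of 0.69. The part of these markers in the values of the ribosomal protein genes was not tested.

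Rps29 (gene 20090, mm10 chromosome 12, 69157722 to 69159186) had the largest difference. It lay at -0.22 and -0.08 in Ezh1-present oil, -0.04 and -0.23 in Ezh1-present tamoxifen, 0.22 and 0.25 in Ezh1-null oil, and 0.04 and 0.09 in Ezh1-null tamoxifen. All 4 Ezh1-null libraries lay above all 4 Ezh1-present libraries. In oil libraries the change was 0.38 ± 0.11, a 1.30-fold higher value in Ezh1-null cells, with a 95% interval of 0.11 to 0.65 and an adjusted p of 0.0541 in limma.

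Rplp2 (gene 67186, chromosome 7, 141447650 to 141451342) lay at -0.15 and -0.09 in Ezh1-present oil and at 0.26 and 0.11 in Ezh1-null oil. Its change was 0.31 ± 0.12, with an adjusted p of 0.128. Its Ezh1-present tamoxifen libraries lay at 0.00 and -0.26, which is the widest gap of this gene within a group.

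Rpl30 (gene 19946, chromosome 15, 34440506 to 34443276), a large-subunit protein that can bind its own transcript in yeast, had the largest difference downward. It lay at 0.19 and 0.24 in Ezh1-present oil, 0.20 and 0.05 in Ezh1-present tamoxifen, -0.15 and -0.08 in Ezh1-null oil, and -0.05 and -0.07 in Ezh1-null tamoxifen. All 4 Ezh1-null libraries lay below all 4 Ezh1-present libraries. The change in oil was -0.33 ± 0.09, with a 95% interval of -0.57 to -0.09 and an adjusted p of 0.0572.

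The calls of these genes sit at the threshold. Rps29 was called when only rows with all 8 libraries above the floor were tested (adjusted p = 0.0404), with a variance trend (0.0483), and when the median of the 77 genes was set to 0 in each library (0.0458), the last a setting chosen after the data were seen. Rpl30 was called under the first and the last of these (0.042 and 0.0431) and when every row entered the fit (0.048). Over all alternatives the adjusted p ran up to 0.194 for Rps29 and 0.18 for Rpl30, both with 1 oil library left out. The change kept its sign in each.

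**Figure D3:**
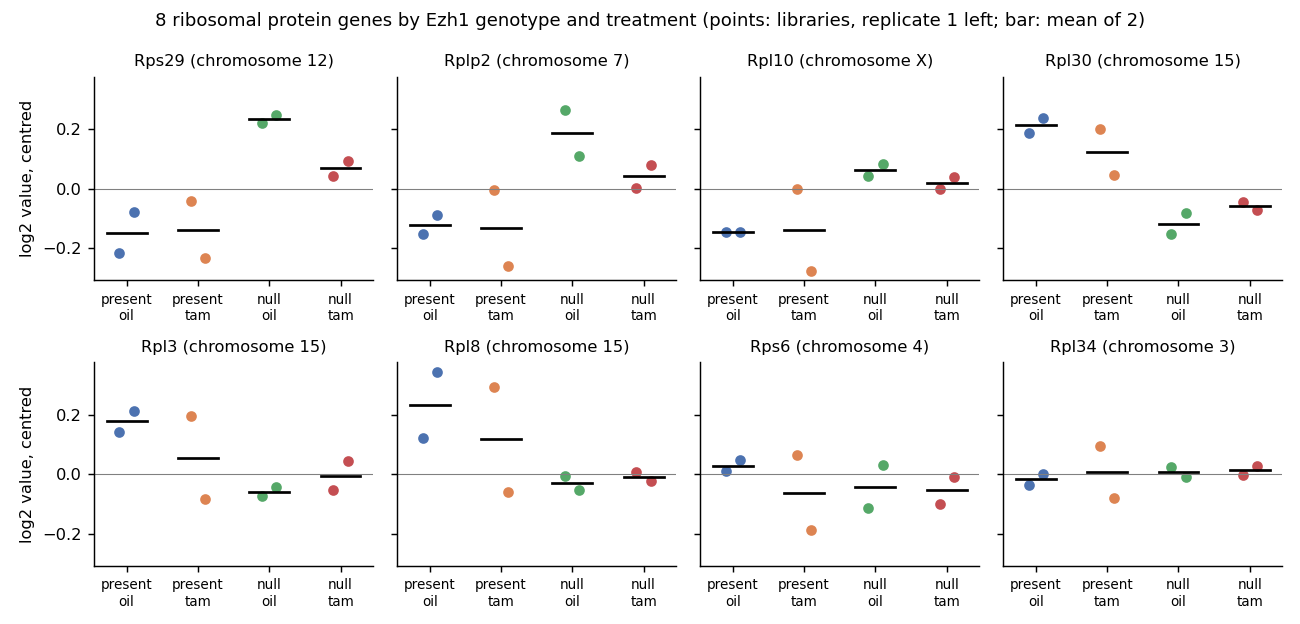
The centred log2 value (y axis) of 8 ribosomal protein genes is plotted for each library by Ezh1 genotype and treatment (x axis), with replicate 1 to the left of replicate 2 and a bar at the mean of the 2. Rps29 lies higher and Rpl30 lower in every Ezh1-null library than in every Ezh1-present library, while Rps6 and Rpl34 overlap between genotypes.

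Rpl30, Rpl8, Rpl3 and Rpl37, each below 0 in this comparison, are the 4 of the 77 genes on chromosome 15, a set picked out after their values were seen. The other genes below 0 lie on other chromosomes, and no test of clustering was run. Rpl8, a protein near the peptidyl transferase centre, lay at 0.12 and 0.34 in Ezh1-present oil and at -0.01 and -0.05 in Ezh1-null oil. Its change was -0.26 ± 0.15, with an adjusted p of 0.257. Rpl3 lay at 0.14 and 0.21 in the first group and at -0.07 and -0.04 in the second, a change of -0.24 ± 0.12 with an adjusted p of 0.211. Rpl37, a zinc-binding protein of the large subunit, lay at 0.03 and 0.22 in the first group and at -0.03 and -0.07 in the second. Its change was -0.17 ± 0.13, with an adjusted p of 0.367.

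For these 4 genes no Ezh1-null oil library reached an Ezh1-present oil library, and the same groups did not overlap for 65.8% of all rows. Other genes of the same chromosome differed in the same direction. The 608 other chromosome 15 genes with all libraries above the floor had a median change of -0.34 between the genotypes in oil. Of these, 51 were called higher and 194 lower (40.3% called, against 24.9% of all rows). On each of the other 19 chromosomes the median of such genes lay between -0.07 and 0.05. By library, the median of the 608 genes was 0.11 and 0.15 in Ezh1-present oil, 0.14 and 0.05 in Ezh1-present tamoxifen, -0.15 and -0.14 in Ezh1-null oil, and -0.02 and -0.10 in Ezh1-null tamoxifen. The 4 ribosomal protein genes had medians of 0.13 and 0.23, 0.20 and -0.06, -0.05 and -0.06, and -0.02 and -0.04 in the same order. The part of the chromosome in the low values of these 4 genes was not tested.

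**Figure D4:**
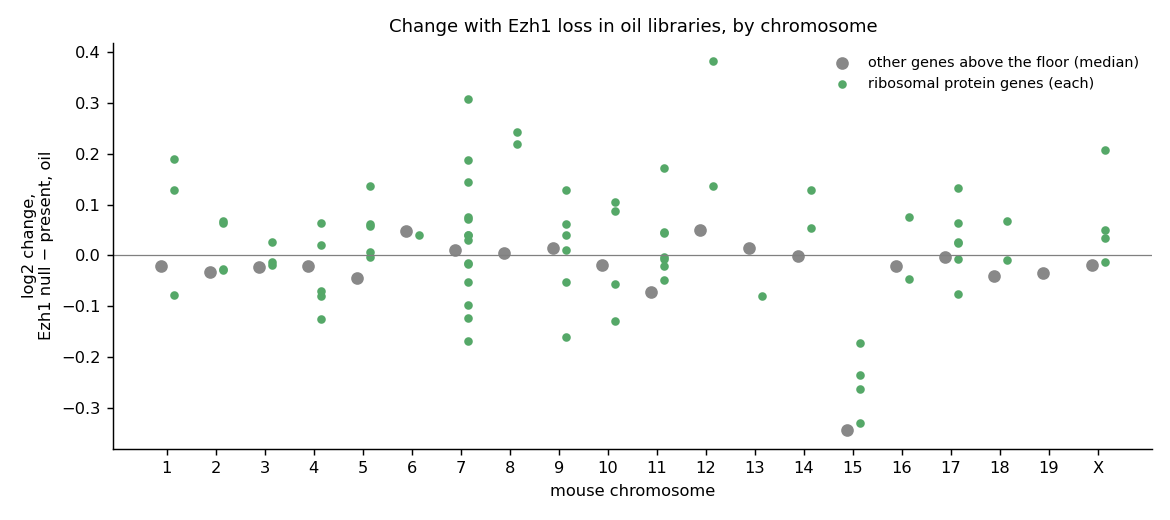
The log2 change between Ezh1-null and Ezh1-present oil libraries (y axis) is plotted by mouse chromosome (x axis), as the median of the other genes (grey) and as each ribosomal protein gene (green). The 4 genes on chromosome 15, from -0.33 to -0.17, lie beside a chromosome median of -0.34.

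After tamoxifen, with Ezh2 deleted in both genotypes, no ribosomal protein gene differed by Ezh1 genotype past the threshold, against 12.2% of all rows. None had an unadjusted p under 0.05, against 32.3% of all rows. Groups did not overlap for 12 of the 77 genes (15.6%; 7 higher and 5 lower in Ezh1-null cells), against 62.5% of all rows. The median change was 0.03, beside -0.0023 over all rows, with 51 genes above 0 and 26 below. The median change of the 77 genes was -0.0509 without Ezh1-present tamoxifen replicate 2 and 0.1242 without replicate 1. With all libraries fitted, the mature neutrophil markers had a median change of 2.12, with 9 of 9 above 0. The B cell markers had one of 2.74, with 4 of 7 called higher (57.1%, against 12.2% of all rows). Of the 10 progenitor and leukaemia markers, 5 were called higher and 2 lower (70%), with a median change of 0.48. The part of these markers in the values of the ribosomal protein genes was not tested.

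Rps29 differed by 0.21 ± 0.11 between the genotypes after tamoxifen (adjusted p = 0.248), Rpl37a by 0.19 ± 0.11 (0.291) and Rpl30 by -0.18 ± 0.09 (0.248). Each of these 3 genes had groups that did not overlap. The comparisons in oil and after tamoxifen share no library.

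The interaction compares the change after tamoxifen between the 2 genotypes, as the change in Ezh1-null minus that in Ezh1-present cells. It was called for none of the 77 genes and for 0.476% of all rows. None of the 77 had an unadjusted p under 0.05, against 14.9% of all rows. The median was 0.01 for the 77 genes, and it was -0.0894 and 0.0888 without replicate 2 or 1 of Ezh1-present tamoxifen. Rpl10a had the largest value, 0.21 ± 0.18 with an adjusted p of 0.638, and Rps29 the smallest adjusted p (0.619). Rpl3 followed among the largest values, with 0.18 and an adjusted p of 0.669. The 95% intervals of 73 of the 77 genes lay within a 1.5-fold difference, and all lay within a 2-fold one.

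Genes of this set with roles outside the ribosome or in disease were followed whatever their change. Rpl5 and Rpl11 form, with the 5S RNA, the particle that binds Mdm2. Rpl5 lay at 0.02 and 0.04 in Ezh1-present oil, 0.02 and -0.10 in Ezh1-present tamoxifen, -0.02 and 0.08 in Ezh1-null oil, and -0.12 and -0.07 in Ezh1-null tamoxifen. Its groups overlapped after tamoxifen in Ezh1-present cells and did not in Ezh1-null cells, where the change was -0.12 ± 0.09 with an adjusted p of 0.555. Rpl11 lay at 0.01 and 0.09, 0.14 and -0.02, -0.15 and -0.01, and -0.02 and 0.02 in the same order, with its largest change of -0.12 ± 0.10 between the genotypes in oil (adjusted p = 0.423).

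Rps19 is the gene most often mutated in Diamond-Blackfan anaemia. It lay at 0.00 and 0.03 in Ezh1-present oil, 0.02 and -0.17 in Ezh1-present tamoxifen, 0.00 and 0.12 in Ezh1-null oil, and -0.06 and 0.00 in Ezh1-null tamoxifen. None of its 5 adjusted p values was under 0.665. Rps14, whose loss from one chromosome causes the anaemia of the 5q- syndrome, lay at -0.05 and 0.06, 0.04 and -0.20, -0.11 and 0.10, and 0.01 and -0.01 in the same order, and its groups overlapped in all 4 comparisons.

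Rps6, the substrate of S6 kinase, lay at 0.01 and 0.05, 0.06 and -0.19, -0.11 and 0.03, and -0.10 and -0.01. Its group means spanned 0.0905. Rpsa, known also as a laminin receptor, lay at -0.02 and 0.10, 0.09 and -0.23, 0.02 and 0.07, and -0.07 and -0.02. The gap of 0.316 between its Ezh1-present tamoxifen libraries was, with those of Rpl8 (0.351) and Rps12 (0.307), among the 3 widest within a group. Rps12 lay at 0.16 and -0.15 in those libraries and between -0.08 and 0.16 in the other 6.

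Rps27a is made as a fusion with ubiquitin. It was, with Rpl34 and Rpl24, among the 3 genes with the smallest range of group means. That range was 0.0477 for Rps27a, 0.0469 for Rpl24, which helps join the subunits, and 0.0312 for Rpl34. Rpl34 lay at -0.04 and 0.00 in Ezh1-present oil, 0.10 and -0.08 in Ezh1-present tamoxifen, 0.03 and -0.01 in Ezh1-null oil, and 0.00 and 0.03 in Ezh1-null tamoxifen.

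The stalk genes were each measured. Rplp0, the base of the stalk, lay at -0.19 and 0.00 in Ezh1-present oil, 0.00 and -0.26 in Ezh1-present tamoxifen, 0.03 and 0.05 in Ezh1-null oil, and -0.03 and 0.01 in Ezh1-null tamoxifen. Rplp1, the partner of Rplp2, lay at -0.20 and 0.01, 0.12 and -0.18, 0.01 and -0.11, and -0.01 and 0.04. Between the genotypes in oil, Rplp2 differed by 0.31, Rplp0 by 0.14 and Rplp1 by 0.04, and whether these values differ from each other was not tested.

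Of the X-linked genes followed, Rpl10, a late-joining protein of the large subunit that is mutated in T cell leukaemia, lay at -0.14 and -0.15 in Ezh1-present oil and at 0.04 and 0.08 in Ezh1-null oil. Its change was 0.21 ± 0.11, with an adjusted p of 0.245. Rps4x, whose product lies in the small subunit, lay at 0.01 and 0.02 in the first group and at -0.07 and 0.07 in the second, a change of -0.01 ± 0.11. Rpl22, lost in some T cell leukaemias, lay at 0.01 and 0.06 in Ezh1-present oil and at -0.06 and -0.03 in Ezh1-null oil, a change of -0.08 ± 0.08. Its paralogue Rpl22l1 lay at -0.14 and -0.03 after oil and at 0.26 and 0.26 after tamoxifen in Ezh1-present cells, a change of 0.35 ± 0.12 with an adjusted p of 0.202.

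Genes of the wider translation machinery were followed on lists chosen with earlier results of these data known. Of 10 ribosomal protein genes outside the symbol rule, 8 were tested and none was called in any comparison. Among 75 mitochondrial ribosomal protein genes, which serve the separate ribosome of the mitochondrion, 71 had a change above 0 between oil and tamoxifen where Ezh1 was present, with a list median of 0.155 beside 0.01 over all rows, and none was called. In replicates 1 and 2 the list median was -0.11 and 0.07 after oil and 0.16 and 0.08 after tamoxifen. Replicate 2 thus differed little between these 2 groups, and the genes of the list are not replicates. By Ezh1 genotype in oil, 3 of the 75 rose and 4 fell (9.33% called, against 24.9% of all rows). Mrpl1 fell by 1.07 ± 0.13 (adjusted p = 0.00645) and Mrps6 fell by 0.62 ± 0.10 (0.0115), while Mrpl51 rose by 0.60 ± 0.10 (0.0159) and Mrpl14 by 0.53 ± 0.09 (0.0163). After tamoxifen 5 fell by genotype and none rose (6.67% called, against 12.2% of all rows).

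Translation factors and other mRNAs of the TOP class numbered 20 tested of 21. In oil 3 of them were lower in Ezh1-null cells and none was higher, a share of 15% against 24.9% of all rows. Hnrnpa1, an RNA-binding splicing factor, fell by 0.71 ± 0.11 (adjusted p = 0.0112), Eif4b, which assists the helicase of translation initiation, fell by 0.59 ± 0.11 (0.0194), and Nap1l1, a histone chaperone, fell by 0.40 ± 0.09 (0.0281). Hnrnpa1 and Eif4b lie on chromosome 15, Nap1l1 on chromosome 10. After tamoxifen 2 were lower by genotype (10%, against 12.2% of all rows), Hnrnpa1 (-0.61 ± 0.11, 0.0309) and Nap1l1 (-0.47 ± 0.09, 0.0327). With 1 library left out, the second of these calls was lost in all 8 fits and the first in 7. Over all settings tried the adjusted p ran up to 0.135 for Nap1l1 and 0.119 for Hnrnpa1. No gene of this list was called after tamoxifen in either genotype.

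Of 13 regulators of ribosomal protein synthesis, such as Mtor, Larp1 and Myc, 1 was called in each genotype comparison (7.69%, against 24.9% of all rows in oil and 12.2% after tamoxifen). Larp4, an RNA-binding protein, was lower in Ezh1-null cells by genotype in oil (-0.54 ± 0.10, adjusted p = 0.0175) and after tamoxifen (-0.45 ± 0.10, 0.0467), and it too lies on chromosome 15. Its call in oil was lost in 4 of the 8 fits with a library left out, and that after tamoxifen in all 8, with an adjusted p up to 0.177. Larp1 itself lay at 0.04 and 0.22 in Ezh1-present oil and at -0.26 and -0.14 in Ezh1-null oil, a change of -0.33 ± 0.11 with an adjusted p of 0.0867. Myc, which drives transcription of ribosomal protein genes, lay at -0.58 and 0.02 in the Ezh1-present oil libraries and between -0.24 and 0.13 in the other 6.

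The list of genes around p53 and Mdm2 held 7 genes: Trp53, Mdm2, Mdm4, Cdkn1a, Cdkn2a, Bbc3 and Zmat3. Whether free ribosomal proteins had a part in their changes was not tested. After tamoxifen in Ezh1-null cells 3 rose (42.9%, against 3.4% of all rows), Cdkn2a by 4.51 ± 0.20 (adjusted p = 0.00264), Zmat3 by 3.26 ± 0.28 (0.00899) and Bbc3 by 1.25 ± 0.10 (0.00794). Mdm2 (0.22 ± 0.09, adjusted p = 0.286), Trp53 (-0.16 ± 0.12, 0.564) and Mdm4 (-0.04 ± 0.10, 0.881) were not called there. Cdkn2a encodes Arf, an inhibitor of Mdm2, and p16. It was also the 1 gene of the list called after tamoxifen in Ezh1-present cells (2.31 ± 0.20, adjusted p = 0.0276) and by genotype after tamoxifen (2.01 ± 0.20, 0.0111). With 1 library left out, the call in Ezh1-present cells was lost in 7 of 8 fits and that by genotype in 2. Over all settings the adjusted p of the first ran up to 0.162. Each single call is 14.3% of this list, against 0.903% and 12.2% of all rows. By genotype in oil 3 fell (42.9%, against 24.9% of all rows), Bbc3 (-0.76 ± 0.10, 0.00778), Zmat3 (-1.73 ± 0.28, 0.013) and Cdkn1a (-0.72 ± 0.17, 0.0362). The tamoxifen comparison in Ezh1-null cells and the genotype comparison in oil share the Ezh1-null oil libraries, in which these genes were low.

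The snoRNA host genes are spliced RNAs that, like ribosomal protein mRNAs, begin with TOP tracts and carry in their introns the small RNAs that modify ribosomal RNA. Of 8 tested, 7 were lower by genotype in the oil libraries of Ezh1-null cells, with a list median of -0.69 beside -0.04 over all rows. That is 87.5% called, against 24.9% of all rows. Snhg5 lay at 0.94 and 0.82 in Ezh1-present oil, 0.49 and 0.29 in Ezh1-present tamoxifen, -0.34 and -0.29 in Ezh1-null oil, and -0.38 and -0.33 in Ezh1-null tamoxifen. It fell by 1.19 ± 0.11 by genotype in oil (adjusted p = 0.00372). Snhg3 fell by 1.09 ± 0.10 (0.00401), Snhg6 by 0.94 ± 0.08 (0.00329) and Snhg12 by 0.77 ± 0.12 (0.0132). After tamoxifen 3 were lower by genotype, Snhg3, Snhg5 and Snhg6 (37.5%, against 12.2% of all rows), and none was called for treatment. The 77 ribosomal protein genes had a median of 0.03 in the same comparison in oil, and 33 of them lay below 0.

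Most calls on these related lists were lost in at least 1 of the fits with a library left out, which have fewer libraries to estimate the spread. Of 28 calls of genes named from the lists, 8 kept an adjusted p under 0.05 with each of the 8 libraries left out in turn, and 6 did so under every setting tried. The 6 were those of Snhg3, Snhg5, Snhg6, Mrpl1 and Bbc3 by genotype in oil, and that of Cdkn2a after tamoxifen in Ezh1-null cells. Those of Bbc3 and Zmat3 after tamoxifen in Ezh1-null cells were lost when only the 2 groups compared were fitted, with adjusted p values of 0.0615 and 0.105.

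**Figure D5:**
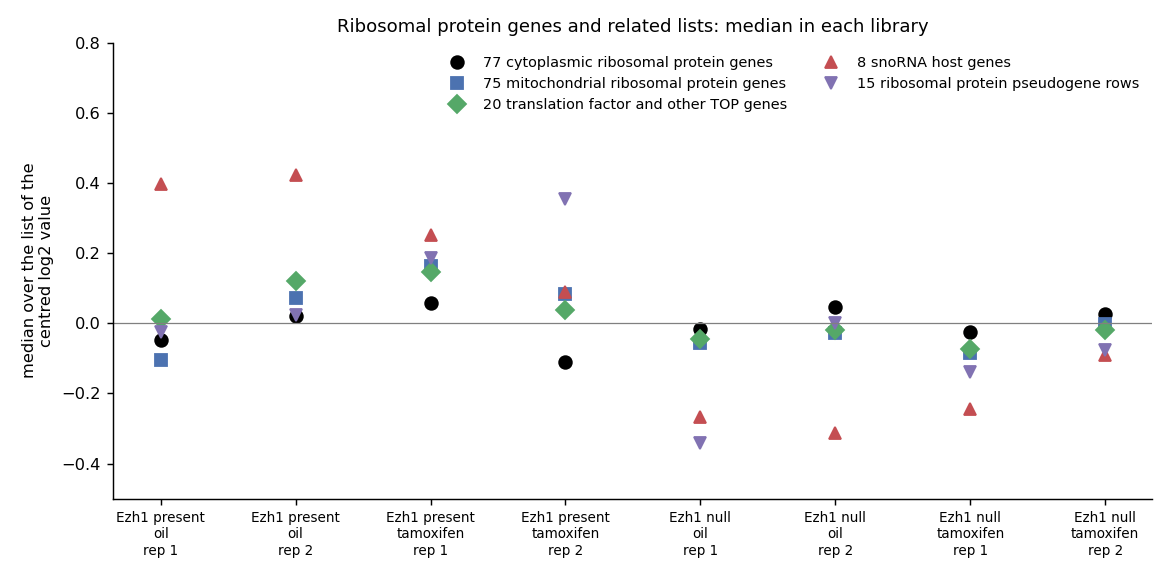
The median over each list of the centred log2 value (y axis) is plotted for each library (x axis), for the 77 ribosomal protein genes and 4 related lists. The snoRNA host genes lie at 0.09 to 0.42 in Ezh1-present and at -0.31 to -0.09 in Ezh1-null libraries, while the ribosomal protein genes stay between -0.11 and 0.06.

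The targeted genes were read in each library as a check of the labels. Ezh1 lay at 1.71, 1.66, 1.55 and 1.63 in the Ezh1-present libraries and at -1.75, -1.94, -1.61 and -1.55 in the Ezh1-null libraries. Ezh2 lay at 0.25 and 0.23 in Ezh1-present oil, 0.09 and 0.03 in Ezh1-present tamoxifen, -0.12 and -0.03 in Ezh1-null oil, and -0.53 and -0.56 in Ezh1-null tamoxifen. Its gene-level change after tamoxifen was -0.18 ± 0.08 in Ezh1-present cells (adjusted p = 0.293) and -0.47 ± 0.08 in Ezh1-null cells (0.0554). By genotype it was called lower in Ezh1-null cells in oil (-0.31 ± 0.08, adjusted p = 0.0492), where the labels give it as intact in both groups, and after tamoxifen (-0.60 ± 0.08, 0.02). Reads outside the deleted part of a floxed gene are counted too, so a gene-level value does not measure the deletion.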

How the data were processed

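Gene-level RNA sequencing values of 8 libraries (2 in each of 4 groups) were analysed, grouped by genotype and treatment label. The deposited tables hold log2 normalized values which, from the values themselves, have a floor of 1 and are set relative to the median of each gene in the 8 libraries (largest absolute row median 9.55e-07). Per the file headers, entities were filtered to the 20 to 100th percentile of raw data. The deposited tables also give the authors' fold change as a log2 value, as a ratio and signed. The deposited log2 fold change equals the difference of group means to within 5.4e-07. The build is mm10 per the submitters' processing notes, and what aligned, counted and scaled the reads is not given in the sources used here. Library depth is unknown and no count test was possible.

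Values were fitted in limma 3.58.1 (R 4.3.3) with 1 coefficient per group, without a variance trend, over the 18051 rows in which 2 or more libraries lay above the floor (residual degrees of freedom 4, prior 1.24). Genes were called at a Benjamini-Hochberg adjusted p under 0.05 over these rows. Intervals are 95% limma intervals. No permutation test was run, since 2 against 2 libraries cannot give a p below 0.333. The fit was tested on simulated data. The symbol rule, gene lists and tests were chosen with earlier results of these data known. Genes named were the 3 with the largest change per comparison, those with fixed roles, the 3 smallest and 3 largest ranges of group means, the 3 widest replicate gaps, and called genes of 6 related lists (4 per list), and some of these are not reported here. Alternatives covered normalization, moderation, row filters, a replicate block and leaving out libraries. Python 3.11.15 and matplotlib 3.10.9 were used.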

Additional observations from a re-analysis of the deposited data

How the results depend on the processing

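Across 17 settings other than the reported one, 8 of which left out 1 library, no ribosomal protein gene was called in either tamoxifen comparison, in the genotype comparison after tamoxifen or in the interaction. For Ezh1-null against Ezh1-present oil libraries, in place of 0, 2 were called with the median of the 77 genes set to 0 in each library, 1 with a variance trend, 1 with every row in the fit and 2 with rows above the floor in all 8 libraries, namely Rps29, Rpl30 or both. With 1 library left out, the median change of the 77 genes ran from -0.1023 to 0.0782 (tamoxifen, Ezh1 present), -0.0501 to 0.0106 (tamoxifen, Ezh1 null), -0.0224 to 0.0561 (genotype, oil), -0.0509 to 0.1242 (genotype, tamoxifen) and -0.0894 to 0.0888 (interaction). The extremes of the first and the last 2 of these came from leaving out Ezh1-present tamoxifen replicate 2 or 1. A group left with 1 library is assumed to vary like the others. With the replicate number as a block, 0 of the 77 genes were called in each comparison. The medians could not move in that fit, since each group holds 1 library of each number. The same-number correlations of deviations ran from -0.09 to 0.12 over all genes and from -0.52 to 0.51 over the 77, with 2 pairs each, so the numbers were not taken to pair the libraries. The 2-group fits could not be made for the interaction. With 2 libraries a group and no known depth, the precision is that of the intervals.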
